A study of Mus musculus with 6 samples.

Results

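The genes described here are the transcription factor Gata3, the Th2 cytokines Il4, Il5 and Il13, and the growth cytokines Csf2, Il2 and Il3, measured in CD4+ T cells of mice with an aortic aneurysm. They were chosen by name, and all 7 were found among the 27998 genes of the matrices. The study sorted CD4+ T cells by flow cytometry from the spleen and the vascular tissue of C57/B6 mice aged 8 to 12 weeks, 14 days after surgery in which elastase, labelled PPE, was applied to induce an abdominal aortic aneurysm. There were 3 spleen and 3 vascular libraries, all from treated mice. No untreated group was analysed here. The labels do not say whether a library came from 1 animal or a pool, so p-values reflect how far these libraries differ among themselves, and part of that spread may be technical. Vascular cells came from minced, enzyme-digested whole aortas and spleen cells from ground tissue without digestion, so the effects of tissue and of handling cannot be told apart in any difference below.

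GATA3 is the transcription factor that directs naive CD4+ T cells toward the T helper 2 (Th2) fate and opens the locus that carries Il4, Il13 and Il5. Interleukin-4 drives B cell switching and Th2 differentiation, interleukin-13 acts on epithelium, fibroblasts and macrophages, and interleukin-5 supports eosinophils. Csf2 encodes GM-CSF, which activates macrophages and neutrophils, Il2 encodes the main T cell growth factor, and Il3 encodes a growth factor for basophils and mast cells. T cells transcribe these cytokine genes in bursts after antigen receptor signalling, through factors of the NFAT and AP-1 families, and invariant natural killer T (NKT) cells and follicular helper T cells are known sources of interleukin-4 in the spleen.

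In the mm10 build with GENCODE M21 annotation, 5 of the 7 genes lie in 1 stretch of chromosome 11. Il4 spans chr11:53602982-53618669 on the minus strand, and Il13 spans chr11:53631324-53634702 on the same strand, 12.7 kb away. Il5 spans chr11:53720794-53725106 on the plus strand, 86.1 kb past Il13 with Rad50 between them. Csf2 (chr11:54247271-54249667) and Il3 (chr11:54265303-54267277), both on the minus strand, lie 522.2 kb past Il5 and 15.6 kb from each other. Il2 spans chr3:37120523-37125959 and Gata3 chr2:9857078-9890034, both on the minus strand. The 3' end of Il2 overlaps Adad1, a gene on the opposite strand, and whether the counting used strand is not stated in the labels.

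The bases just upstream of 4 of the cytokine genes are shown because the genes rose together in some cells and apart in others. They come from the RefSeq promoter table for GRCm38.p6 and are written 5' to 3' on the strand of the gene, ending before its first transcribed base. Capitals mark GGAAA, the core that NFAT binds, and AGATA, a form of the GATA core, on either strand (TTTCC and TATCT on the printed strand). The Il4 sequence is chr11:53618670-53618915, Il13 is chr11:53634703-53634952, Il5 is chr11:53720544-53720793 and Il2 is chr3:37125960-37126204.
Il4: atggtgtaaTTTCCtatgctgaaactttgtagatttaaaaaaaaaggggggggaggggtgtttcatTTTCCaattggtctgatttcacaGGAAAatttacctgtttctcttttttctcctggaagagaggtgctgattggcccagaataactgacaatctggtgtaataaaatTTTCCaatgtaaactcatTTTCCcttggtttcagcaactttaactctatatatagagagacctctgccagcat
Il13: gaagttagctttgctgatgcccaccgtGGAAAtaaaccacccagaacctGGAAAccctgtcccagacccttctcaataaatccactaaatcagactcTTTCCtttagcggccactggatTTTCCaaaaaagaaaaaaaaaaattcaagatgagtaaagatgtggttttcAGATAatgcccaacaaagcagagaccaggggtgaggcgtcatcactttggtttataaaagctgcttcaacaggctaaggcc
Il5: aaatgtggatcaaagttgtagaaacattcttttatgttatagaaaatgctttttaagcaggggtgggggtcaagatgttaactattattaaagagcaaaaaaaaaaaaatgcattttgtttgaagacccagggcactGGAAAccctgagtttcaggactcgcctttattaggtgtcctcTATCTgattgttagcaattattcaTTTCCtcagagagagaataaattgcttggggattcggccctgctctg
Il2: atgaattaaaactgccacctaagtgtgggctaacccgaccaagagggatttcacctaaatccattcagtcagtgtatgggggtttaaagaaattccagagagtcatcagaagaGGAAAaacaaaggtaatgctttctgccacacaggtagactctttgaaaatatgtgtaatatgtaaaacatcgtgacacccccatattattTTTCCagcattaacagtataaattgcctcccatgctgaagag

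The Il4 window shown held 5 copies of GGAAA, Il13 held 4, and Il5 and Il2 held 2 each. A second RefSeq window of Il4, chr11:53617339-53617588, held 0 copies. Its start site lies 1331 bases from the GENCODE start, and it is not shown. The Il3 window, also not shown, held 1 GGAAA and 1 AGATA. Among 32851 RefSeq promoter windows of 250 bases, 0.39% held at least 5 copies, 1.59% at least 4 and 21.4% at least 2. AGATA occurred once in Il13 and once in Il5 and was not found in the Il4 and Il2 windows, against 26.6% of all windows with at least 1 copy. The AP-1 motif TGANTCA was in none of the 4 windows and in 6.75% of all windows. A match describes letters in a window and does not show binding. The RefSeq start sites of Gata3 and Csf2 differ from the GENCODE starts, so their upstream bases are not shown.

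Values were read from cells with at least 1 unique molecular identifier (UMI, 1 captured transcript molecule) of Cd3e, a subunit of the T cell receptor complex. There were 20235 such cells in the spleen and 18331 in vascular tissue, at a median of 5206 and 4611 UMIs per cell. The libraries held 14164133 to 53390092 UMIs in these cells. The sort label was checked on summed levels in CPM, the UMIs of a gene scaled to a common total per library. T cell markers (Cd3e, Cd3d, Cd3g and Cd4) summed to 2802 to 3299 CPM in all libraries. Since the cells were chosen by Cd3e, this sum was bound to be high and does not check the sort. Cd4 alone had 19907 UMIs in spleen and 22219 in vascular cells. The 5 markers of plasmacytoid dendritic cells summed to 46.2 to 56.0 CPM in the spleen and 184 to 283 CPM in vascular libraries, and CD8 markers to 18.5 to 21.4 and 41.4 to 53.0 CPM. Genes of naive T cells were lower in vascular libraries, with Igfbp4 at a mean of 636 CPM in the spleen and 171 CPM in vascular tissue, Lef1 at 375 and 169 CPM and the homing receptor Ccr7 at 501 and 322 CPM. Basophil and mast cell markers summed to at most 0.168 CPM, with Mcpt8, Ms4a2 and Gata2 at 0 UMIs. Between 18 and 136 cell barcodes were shared by a pair of libraries.

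Over all Cd3e+ cells, Gata3, Il13, Csf2 and Il2 were higher in vascular tissue than in the spleen, Il5 had 161 UMIs in vascular libraries and 1 in the spleen, and Il4 did not pass the test. Of the 5 members that passed the filter on low counts, 4 rose in the quasi-likelihood test of edgeR with Benjamini-Hochberg adjustment at 0.05. The background is broad, since 42.9% of the 12485 genes tested were called in 1 direction or the other. The CPM of the same 4 members did not overlap between tissues, as was so for 54.9% of genes tested. The members' count therefore has to be read against a comparison in which many genes differ. All 5 plasmacytoid dendritic markers and both CD8 markers were higher and Igfbp4, Lef1 and Ccr7 lower in the same comparison, and their part in the members' differences was not tested. In such sums, more cells expressing a gene and more RNA per cell cannot be told apart.

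Gata3 stood at 69.7, 69.4 and 65.1 CPM in spleen libraries 1 to 3 and at 114.3, 93.2 and 91.3 CPM in vascular libraries 1 to 3. All vascular libraries were above all spleen libraries. The means were 68.1 ± 2.57 and 99.6 ± 12.7 CPM (SD over 3 libraries). On the log2 scale Gata3 rose by 0.55 ± 0.10 (SE, edgeR adjusted p = 0.00272).

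Il4 stood at 10.1, 5.31 and 6.14 CPM in the spleen and at 1.75, 2.47 and 6.74 CPM in vascular libraries. Vascular library 3 lay inside the range of the spleen. The means were 7.19 ± 2.57 and 3.65 ± 2.70 CPM, with a log2 difference of -0.92 ± 0.46 (SE, edgeR adjusted p = 0.135). Without vascular library 3 the difference was -1.74 (adjusted p = 0.00308). Of the 244 Il4 UMIs of that library, 66 were in 1 cell, and with the top cell of each member removed the difference was -1.22 (adjusted p = 0.0376), an alternative chosen after the data had been seen.

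Il13 had 0, 3 and 2 UMIs in the spleen and 63, 49 and 100 UMIs in vascular libraries. The ratio of the summed levels was 49.5, with a 95% counting interval of 20.9 to 154.1. In CPM the means were 0.0323 ± 0.0300 and 2.05 ± 0.637 (edgeR adjusted p = 6.30e-05). Il5 had 0, 1 and 0 UMIs in the spleen and 59, 4 and 98 in vascular libraries, so the vascular libraries differed widely among themselves. It did not pass the filter on low counts. The ratio of summed levels was 188.1, with a counting interval of 33.3 to 7476, which covers counting error only.

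Csf2 stood at 2.5, 0.632 and 1.06 CPM in the spleen and at 7.84, 8.09 and 18.2 CPM in vascular libraries. Vascular library 3 was the highest, and no library overlapped the other tissue. The means were 1.39 ± 0.977 and 11.4 ± 5.90 CPM, a log2 difference of 3.30 ± 0.49 (SE, edgeR adjusted p = 0.00104). In spleen library 1, 27 of 36 Csf2 UMIs were in 1 cell, and with the top cell of each member removed the difference was 3.95. Il2 stood at 3.4, 7.13 and 4.27 CPM in the spleen and at 14.9, 15 and 13 CPM in vascular libraries, which lay close together. Its log2 difference was 1.48 ± 0.23 (SE, edgeR adjusted p = 0.0012). Il3 had 3 UMIs in 2 vascular cells and none in the spleen, at or under the floor of 3 counts in both tissues, so no fold is given.

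**Figure D1:**
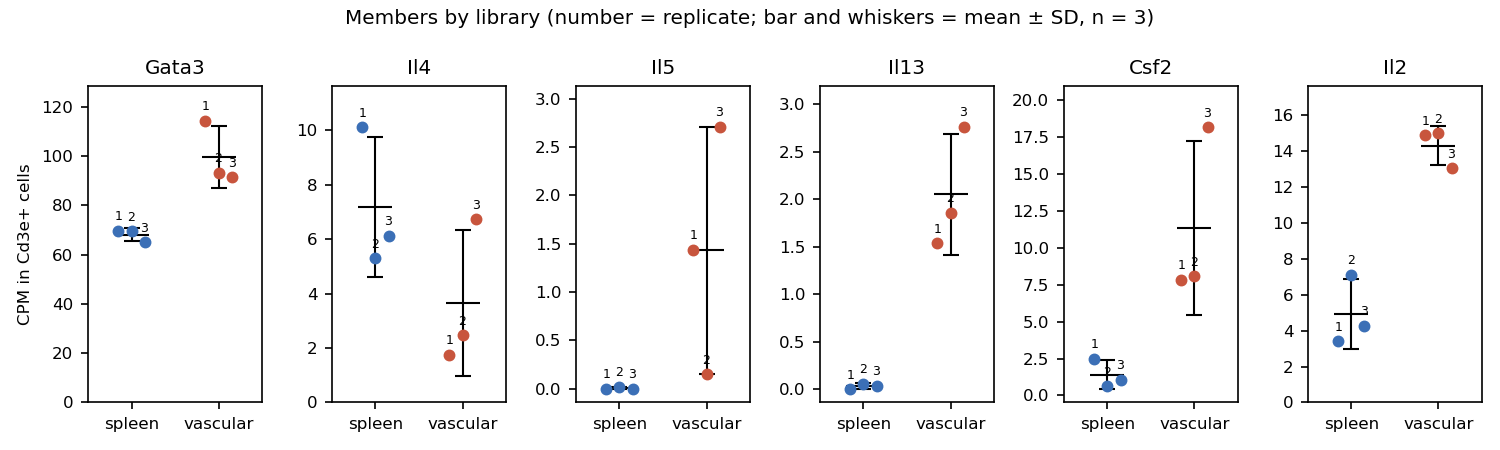
Level of 6 members in Cd3e+ cells of each library, in CPM on linear axes (points, numbered by replicate; bar and whiskers, mean ± SD, n = 3). All vascular libraries lie above all spleen libraries for Gata3, Il5, Il13, Csf2 and Il2, whereas for Il4 vascular library 3 (6.74 CPM) lies within the spleen range of 5.31 to 10.1 CPM.

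Il4 separated more clearly by the share of cells with a UMI than by level. The share was 3.27, 1.89 and 1.93% in spleen libraries and 0.484, 0.633 and 0.983% in vascular libraries. Thinned to 1000 UMIs in every cell, the shares were 0.966, 0.531 and 0.522% and 0.178, 0.175 and 0.271%, with no overlap. The thinned share of Gata3 rose from a mean of 6.40 to 9.14%, that of Csf2 from 0.112 to 0.552% and that of Il2 from 0.392 to 1.15%. Thinned shares of Gata3, Il4, Il5, Il13, Csf2 and Il2 did not overlap between tissues (exact two-sided permutation p = 0.1, the smallest that 3 against 3 allows; adjusted p = 0.117), so this test cannot pass the threshold. As background, 9 of 1126 vascular barcodes with plasmacytoid dendritic markers (0.799%, median 8199 UMIs) had a Gata3 UMI and none had Il4, which allows a share of up to 0.266%. Of 194 spleen barcodes with B cell markers (median 3871 UMIs), 2 (1.03%) had an Il4 UMI. None of 152 spleen barcodes with plasmacytoid dendritic markers had one, which allows a share of up to 1.97%. The Il4 share of ungated spleen cells, given with the compartments, was 0.825%. Those with Il4 held 1.76 Il4 UMIs each, and no spleen barcode outside the Cd3e+ cells held more than 1. With 2 positive B cell barcodes the background share is itself uncertain, and whether ungated cells lie above it was not tested.

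The Cd3e+ cells were divided by 1 UMI of a gate gene, taken in order. The gates were chosen with earlier results of these data known, so tests of a gate against ungated cells are not independent evidence. Foxp3 marks regulatory T cells. Zbtb16 encodes the factor PLZF of NKT and other innate-like T cells, and Klrb1c encodes the receptor NK1.1. Cxcr5 is the homing receptor of follicular helper T cells, and Ccl1 is a chemokine of activated T cells that binds CCR8. Cells with none are called ungated. The Foxp3 gate held 2036 spleen and 1800 vascular cells, the Zbtb16/Klrb1c gate 531 and 126, the Cxcr5 gate 1177 and 439, and the Ccl1 gate 6 and 208, which left 16485 and 15758 ungated cells. In 361 cells more than 1 gate gene was found. Other marker genes separated the gates from ungated cells to different degrees. Of 6 NK or innate-like genes (Il2rb, Klrk1, Klrd1, Xcl1, Tbx21 and Fcer1g), 5 were higher than in ungated cells in the spleen gate and 4 in the vascular gate, and of 6 follicular genes (Bcl6, Pdcd1, Icos, Il21, Sh2d1a and Tox2) all 6 were higher in the spleen Cxcr5 gate and 3 in the vascular one. All 5 regulatory genes in both tissues and all 4 genes checked in the vascular Ccl1 gate (Penk, Dusp14, Ccr8 and Tnfrsf9) were higher. These lists were not specific to their own gates. In the spleen Zbtb16/Klrb1c gate, 5 of 6 follicular and 3 of 5 regulatory genes were higher too, beside 8.65% of all genes. Their median log2 differences were 0.94 and 0.71, against 2.57 for the NK or innate-like genes. In the vascular Ccl1 gate, 4 of 6 NK or innate-like and 3 of 5 regulatory genes were higher too, beside 8.24% of all genes. A gate by 1 UMI misses cells in which the transcript was not caught, so ungated cells include such cells.

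The main supplier of Il4 in the spleen was the Zbtb16/Klrb1c gate, which held 2.94% of all UMIs. It held 82 of 146, 119 of 269 and 138 of 325 Il4 UMIs in spleen libraries 1 to 3, a mean share of 47.6 ± 7.45% (SD, n = 3). Ungated cells held 32.0 ± 7.94%, Cxcr5+ cells 13.1 ± 9.81% and Foxp3+ cells 6.31 ± 2.68%. Ungated cells were the second supplier in spleen libraries 1 and 3, with 49 and 127 UMIs. In spleen library 2 they held 63 UMIs and Cxcr5+ cells 62. With a gate at 2 UMIs the share of the Zbtb16/Klrb1c gate was 33.3% and that of ungated cells 53.7%, so the share depends on where the gate is set.

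In level, the spleen Zbtb16/Klrb1c cells stood at 147.7, 82.0 and 93.3 CPM of Il4, against 5.07, 1.78 and 3.36 CPM in ungated cells. Every gated sum was above every ungated sum. The log2 difference was 5.04 ± 0.31 (SE, edgeR with library as a block, adjusted p = 1.59e-12), in a comparison in which 17.7% of 9711 genes were called. An Il4 UMI was found in 201 of 531 gated cells (37.9%) and in 0.825% of ungated cells. Cxcr5+ cells had 4.35, 17.6 and 10.2 CPM, a log2 difference of 2.03 ± 0.37 to ungated cells (adjusted p = 1.49e-04, with 24.2% of genes called). That call rested on spleen library 2, without which the difference was 1.17 (adjusted p = 0.0779). Of 4 tested B cell markers, 3 were also higher in spleen Cxcr5+ cells (median log2 difference 2.46), and their part in the Il4 level was not tested. Foxp3+ spleen cells did not differ from ungated cells in Il4 by the test (3.49 and 3.4 CPM, adjusted p = 0.701).

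Spleen ungated cells with Il4 carried other markers of the gates. Among 136 such cells, 46.3% had at least 2 of the 6 NK or innate-like genes, against 6.53% of ungated cells without Il4. At least 2 follicular genes were found in 52.2% against 22.6%, and at least 2 of the 5 regulatory genes in 44.1% against 19.6%. Ccr7 was found in 24.3% against 78.4%. Over all 416 spleen cells with Il4, Cxcr6, a chemokine receptor of NKT and tissue T cells, was found in 69.5% against 5.95% of other cells. Ifng was found in 41.6% against 7.33%, Csf2 in 6.01% against 0.217%, and Il17a in none against 0.192%. These shares describe pooled cells of 3 libraries, with medians of 5210 and 5206 UMIs in cells with and without Il4.

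**Figure D2:**
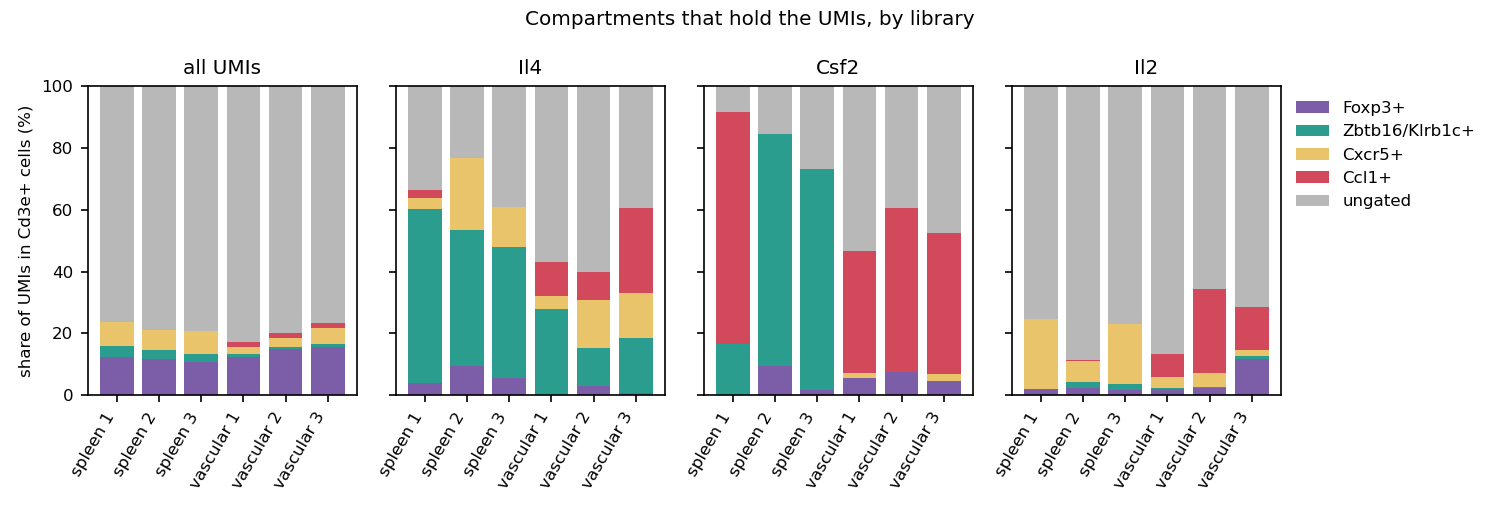
Share of UMIs in Cd3e+ cells (%) held by each compartment, 1 stacked bar per library, for all UMIs and for Il4, Csf2 and Il2. The Zbtb16/Klrb1c gate holds a mean of 47.6% of spleen Il4, the Ccl1 gate a mean of 46% of vascular Csf2, and ungated cells most Il2 in all 6 libraries; the Ccl1 share of Csf2 in spleen library 1 is 27 UMIs of 1 cell.

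In vascular tissue the compartments held Il4 in other proportions, and the difference in shares was not tested. Ungated cells held 52.1 ± 11.1% of its UMIs, the Zbtb16/Klrb1c gate 19.2 ± 7.86%, Ccl1+ cells 15.9 ± 10.0% and Cxcr5+ cells 11.4 ± 6.30% (SD, n = 3). With 2 UMIs of the gate gene, ungated cells held 73.3% and the Zbtb16/Klrb1c gate 5.28%. The level within the Zbtb16/Klrb1c gate was 69.3, 48.3 and 112.9 CPM, which overlapped the spleen. The log2 difference between tissues within the gate was -0.28 (edgeR adjusted p = 0.681, with 6.15% of genes called), and the gate stood 5.02 ± 0.49 above vascular ungated cells on the log2 scale (adjusted p = 4.81e-07, with 1.53% called). The gate itself was smaller, at 0.684 ± 0.176% of vascular and 2.87 ± 0.631% of spleen cells. The pooled share of gated cells with an Il4 UMI was 10.3% (13 of 126) in vascular tissue against 37.9% in the spleen, while the summed level was not called different.

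Foxp3+ cells had fewer Il4 UMIs in vascular tissue. They had 6, 25 and 18 Il4 UMIs in the spleen and 0, 2 and 2 in vascular libraries, or 3.26, 4.05 and 3.16 CPM against 0, 0.484 and 0.337 CPM. The tissues did not overlap. An Il4 UMI was found in 27 of 2036 spleen Foxp3+ cells (1.33%, library medians of 5027 to 6235 UMIs). Beside them, 2 of 194 spleen barcodes with B cell markers had one (1.03%), too few to set a background share. Whether the spleen counts are expression by Foxp3+ cells was not tested. The log2 difference within the gate was -3.64 ± 0.56 (SE, edgeR adjusted p = 8.16e-04, with 28.1% of 10407 genes called). The step from ungated to Foxp3+ cells also differed between tissues for Il4 (interaction -3.47 ± 1.00, edgeR adjusted p = 0.0332, with 6.44% of genes called), a call that held in 2 of 9 alternatives. Within Cxcr5+ cells (4.97% of genes called) and within ungated cells (42.7% called), Il4 did not pass the test between tissues, with log2 differences of 0.19 and -0.39. Against ungated cells of their own tissue, vascular Foxp3+ cells had less Il4, by -3.20 ± 0.85 on the log2 scale (adjusted p = 0.00329, and -3.81 without vascular library 2), in a comparison that called 43.3% of genes. Vascular Cxcr5+ cells stood at 3.02, 14.2 and 19.9 CPM, 2.27 ± 0.51 above vascular ungated cells on the log2 scale (adjusted p = 0.0023, with 17.4% of genes called). Of 4 tested B cell markers, 3 were higher there too (median log2 difference 3.18), and their part was not tested. Without vascular library 3 that call was lost (adjusted p = 0.107), as it was with 2 UMIs of Cxcr5 (adjusted p = 0.271).

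Csf2 in vascular tissue came in like parts from Ccl1+ and from ungated cells. Ccl1+ cells, 1.14 ± 0.105% of cells, held 127 of 322, 113 of 213 and 300 of 658 Csf2 UMIs in vascular libraries 1 to 3, a mean of 46 ± 6.82% (SD, n = 3). Ungated cells held 46.8 ± 7.01%, Foxp3+ cells 5.89 ± 1.5% and Cxcr5+ cells 1.33%. Counted as cells rather than UMIs, the Ccl1 gate held 22.3 ± 6.80% of the cells with Csf2 and ungated cells 66.8%. With 2 UMIs of the gate genes, the Ccl1 gate held 32.2% of UMIs and ungated cells 63.3%.

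The level of Csf2 in vascular Ccl1+ cells was 222.0, 252.2 and 487.7 CPM, against 5.31, 4.36 and 12.5 CPM in ungated cells of the same libraries. The lowest gated library was above the highest ungated one. The log2 difference was 5.47 ± 0.18 (SE, edgeR adjusted p = 7.25e-15), in a comparison that called 14.9% of genes. Since the gate was chosen with earlier results of these data known, this p-value describes the difference and is not independent evidence. A Csf2 UMI was found in 60 of 208 Ccl1+ cells (28.8%) and in 1.15% of ungated cells. Il4, Il13, Il2 and Gata3 were higher in the Ccl1 gate too, so all 5 tested members rose there. Il13 stood at 22.7, 22.3 and 56.9 CPM, a log2 difference of 4.60 ± 0.43 (adjusted p = 5.07e-07). Il2 stood at 80.4, 238.8 and 107.3 CPM, a log2 difference of 3.21 ± 0.34 (adjusted p = 1.80e-07). Il4 stood at 14.0, 13.4 and 108.9 CPM (log2 difference 4.21 ± 0.45, adjusted p = 2.58e-07). The high Il4 level of library 3 was nearly all 1 cell, which held 66 of its 67 UMIs, and without library 3 the log2 difference was 3.04 (adjusted p = 0.0243). Without vascular library 2 that of Il2 was 2.60. Il5, which was not tested, stood at 35.0, 2.23 and 113.8 CPM in this gate.

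Vascular ungated cells with Csf2 were not of 1 kind. Among 181 such cells, at least 2 of the 4 Ccl1-gate genes were found in 30.4%, against 4.19% of ungated cells without Csf2. Those 4 genes were also higher in vascular Foxp3+ cells. At least 2 regulatory genes were found in 77.3% against 50%, NK or innate-like genes in 42.5% against 30.4%, follicular genes in 57.5% against 42.0%, and Ccr7 in 14.4% against 30.4%. Cxcr6 was found in 86.7% against 51.9%. Over all compartments, vascular cells with Csf2 were deeper, at a median of 5580.5 against 4601 UMIs, and the part of depth in these shares was not tested. By their other cytokines, ungated cells with Ifng and no Il17a held 40 ± 11.9% of the ungated Csf2 UMIs, cells with Il17a 6.29 ± 2.51%, and cells with neither 53.7 ± 9.77% (SD, n = 3). These classes made up 32.1%, 2.96% and 64.9% of ungated cells, and a Csf2 UMI was found in 1.38%, 4.51% and 0.879% of their cells. Among the 60 Ccl1+ cells with Csf2, Ifng was found in 73.3% against 53.4% of the other Ccl1+ cells, and Il2 in 35.0% against 14.2%. The 12 Ccl1+ cells with Il4 differed from these: none had Ifng, against 62.8% of other Ccl1+ cells, and all had Gata3.

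Some Csf2 lay outside the Cd3e+ cells. In vascular library 1, 61 of 383 Csf2 UMIs were in cells without a Cd3e UMI, and 44 of them were in 1 barcode of 5057 UMIs that also held 38 Il2, 3 Ccl1 and 4 Cd3d or Cd3g UMIs.

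In the spleen the few Csf2 UMIs came mostly from the gate that supplied Il4, except in library 1. The Zbtb16/Klrb1c gate held 6 of 36, 24 of 32 and 40 of 56 Csf2 UMIs, a mean of 54.4 ± 32.7%. Without spleen library 1, where 1 Ccl1+ cell held 27 UMIs, the mean was 73.2%. The gate stood at 10.8, 16.5 and 27.0 CPM against 0.310, 0.141 and 0.397 CPM in ungated cells, a log2 difference of 6.12 ± 0.39 (SE, edgeR adjusted p = 4.79e-11), and 5.14 with 2 UMIs of the gate gene. Of 68 spleen cells with Csf2, 36.8% also had Il4, against 1.94% of other cells, and 52.9% had Ifng. The same gate in vascular tissue had 0 Csf2 UMIs among 817729 UMIs of 126 cells, so the level in the spleen gate was at least 5.75-fold higher than the floor of 3 counts over the group. The step from ungated to Zbtb16/Klrb1c cells differed between tissues for Csf2 (interaction, edgeR adjusted p = 6.51e-08, with 3.08% of genes called), and it did so in 8 of 8 alternatives. The gate's own marker genes differed in the same way of testing, with 4 of the 6 NK or innate-like genes lower and 1 higher in the vascular step (median log2 difference -2.12). Their part in the Csf2 difference was not tested. The ungated side of this step rose as well, from a mean of 0.283 CPM in the spleen to 7.40 CPM in vascular tissue.

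**Figure D3:**
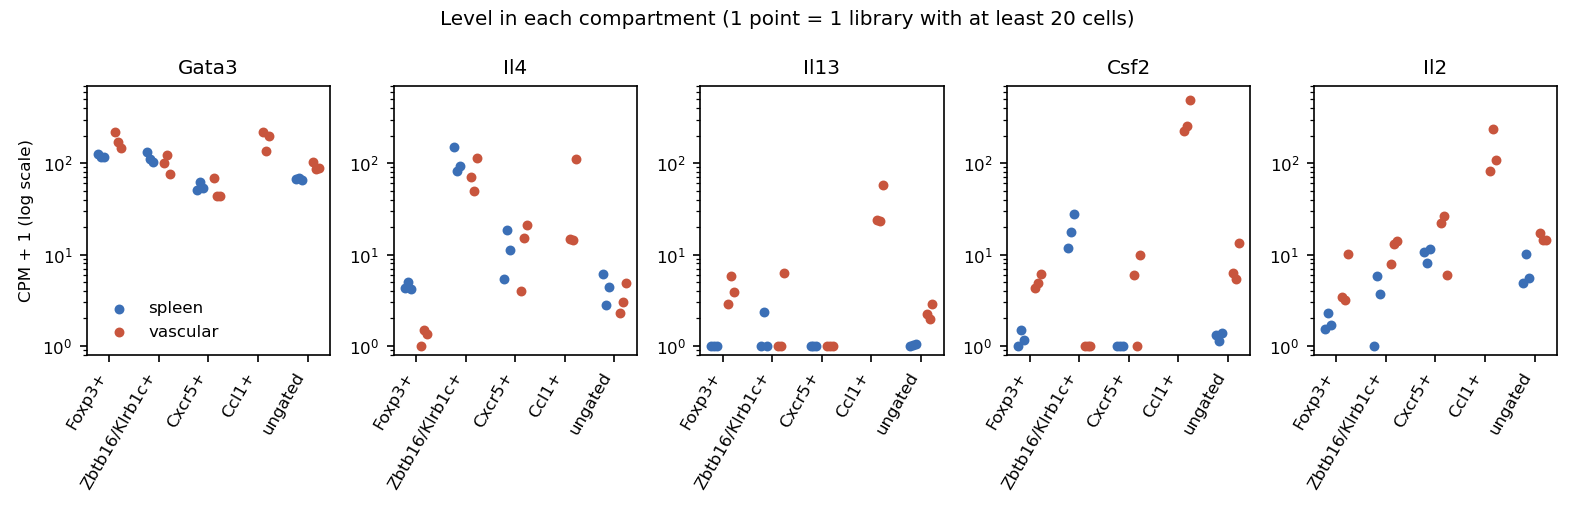
Level of 5 members in each compartment as CPM + 1 on a log axis (1 point per library with at least 20 cells; blue, spleen; red, vascular tissue). By mean, Il4 is highest in the Zbtb16/Klrb1c gate of the spleen (82.0 to 147.7 CPM). That range overlaps the same gate of vascular tissue (48.3 to 112.9 CPM). Csf2 is highest in the vascular Ccl1 gate (222.0 to 487.7 CPM) and had 0 UMIs in the vascular Zbtb16/Klrb1c gate. Gata3 varies least among compartments.

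Outside the gates, vascular ungated cells had more Csf2 and Il13 than spleen ungated cells. Csf2 rose from a mean of 0.283 ± 0.130 to 7.40 ± 4.47 CPM, a log2 difference of 4.75 ± 0.55 (SE, edgeR adjusted p = 2.83e-04), and 4.16 without vascular library 3. Il13 had 3 UMIs in spleen and 105 in vascular ungated cells, a ratio of levels of 40.3 with a counting interval of 13.4 to 198.5 (adjusted p = 1.7e-04). On the log2 scale Il2 rose by 1.29 ± 0.27 (5.82 to 14.4 CPM, adjusted p = 0.00548) and Gata3 by 0.51 ± 0.09 (66.2 to 91.6 CPM, adjusted p = 0.00283). The ungated cells themselves differed between tissues. All 6 NK or innate-like, all 5 regulatory, all 4 Ccl1-gate and all 5 plasmacytoid dendritic genes were higher in vascular ungated cells, and Igfbp4, Lef1 and Ccr7 fell by 1.90, 1.17 and 0.70 on the log2 scale. Their part in the members' differences was not tested.

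Foxp3+ cells carried Il13 and Csf2 in vascular tissue. They had 10, 20 and 17 Il13 UMIs there and none among 13611916 spleen UMIs, at least 14.6-fold more than the floor of 3 counts over the group. All 20 UMIs of vascular library 2 were in 1 cell. Csf2 rose within the gate from 0.221 ± 0.246 to 4.09 ± 0.874 CPM, a log2 difference of 3.73 ± 0.52 (edgeR adjusted p = 4.37e-04), and 4.71 without spleen library 2, which left 1 spleen UMI. Within the same gate all 5 plasmacytoid dendritic markers (median log2 difference 3.14) and both CD8 markers rose, and Igfbp4, Lef1 and Ccr7 fell, and their part was not tested. Set against ungated cells, vascular Foxp3+ cells had 1.14 ± 0.41 more Il13 on the log2 scale (adjusted p = 0.0309), which was 0.58 (adjusted p = 0.391) without vascular library 2. Their Csf2 fell by 0.84 relative to ungated cells (adjusted p = 0.00887), and by 0.47 (adjusted p = 0.321) without vascular library 3 or by 0.62 (adjusted p = 0.0526) without cells that carried markers of another lineage. Il2, which FOXP3 is known to repress, fell by 2.71 in spleen Foxp3+ cells relative to ungated cells (adjusted p = 0.00219, with 30.3% of genes called) and by 1.55 in vascular ones (adjusted p = 0.00169). The vascular difference was -2.73 without vascular library 3. The spleen value lost its call without spleen library 2 (adjusted p = 0.0597). Between tissues, Il2 within Foxp3+ cells rose by 2.34 ± 0.67 on the log2 scale (adjusted p = 0.0251), and the call was lost without spleen library 2, spleen library 3 or vascular library 3 (adjusted p = 0.0547, 0.0933 and 0.0897).

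Il2 was mostly a product of ungated cells, which held 80.4 ± 7.19% of its UMIs in the spleen and 74.5 ± 10.9% in vascular tissue. Cxcr5+ cells held 16.3% in the spleen and Ccl1+ cells 16.2 ± 9.97% in vascular tissue. These ungated shares were close to the ungated share of all UMIs, 78.1 and 79.8%. Of 840 vascular cells with Il2, 43.0% had Ifng against 30.1% of the others.

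Il13 and Il5 in vascular tissue were shared between ungated and Ccl1+ cells. Ungated cells held 49.4 ± 12.7% of Il13 UMIs, Ccl1+ cells 25.3 ± 8.36% and Foxp3+ cells 24.6 ± 14.1%. For Il5, ungated cells held 55.0 ± 26.1% and Ccl1+ cells 43.4 ± 24.6% as means over libraries, 1 of which (vascular library 2) had 4 Il5 UMIs. Pooled over the vascular libraries the order was reversed, with 91 of 161 Il5 UMIs (56.5%) in Ccl1+ and 66 (41.0%) in ungated cells. The 67 cells with Il13 had Gata3 in 88.1%, against 30.9% of other vascular cells. The cells with Il13 were deeper, at a median of 6035 UMIs against 4608. Il1rl1, the receptor for the alarmin interleukin-33, was found in 34.3% against 3.76%, and Areg, which encodes the repair factor amphiregulin, in 62.7% against 16.3%. Il4 was found in 26.9% of them, Csf2 in 23.9% and Il5 in 14.9%. Both cells with Il3 also had Ccl1, Il4 and Gata3.

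Few cells held much of each vascular cytokine. Of 270 vascular cells with Csf2, 28 held 50% of its UMIs, and the top cell held 51. For Il4, 11 of 125 cells did so, with a maximum of 66, for Il13, 11 of 67, and for Il5, 4 of 35. In the spleen Il4 was spread more evenly, with 112 of 416 cells needed and a maximum of 8 UMIs per cell. Gata3 was found mostly as single UMIs, in 70.8% of its spleen and 61.5% of its vascular cells.

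**Figure D4:**
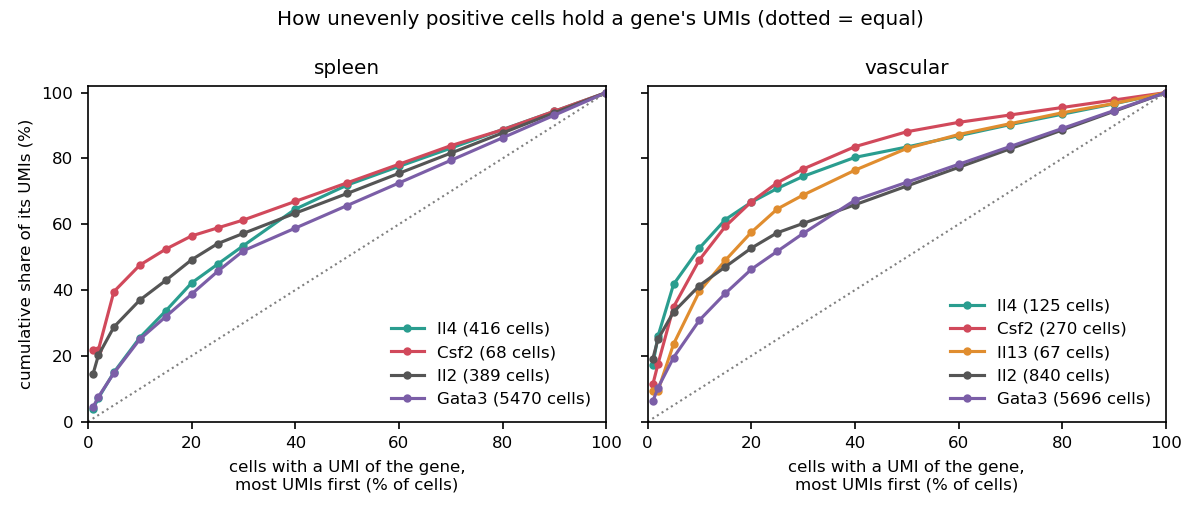
Cumulative share of a gene's UMIs (%) against its positive cells ranked from most to fewest UMIs (% of positive cells), pooled over the 3 libraries of a tissue; the dotted line marks equal UMIs in every cell. The top 10% of positive cells hold 52.8% of vascular Il4 UMIs and 25.5% of spleen Il4 UMIs, and 49.2% of vascular Csf2 UMIs.

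Gata3 itself varied less among compartments than the cytokines. In the spleen its mean level was 118 CPM in Foxp3+ cells, 115 CPM in Zbtb16/Klrb1c cells, 66.2 CPM in ungated cells and 54.4 CPM in Cxcr5+ cells. The first 2 overlapped each other, and both were above ungated cells, by 0.83 ± 0.09 and 0.76 ± 0.11 on the log2 scale (edgeR adjusted p = 7.75e-08 and 9.41e-06). In vascular tissue Ccl1+ cells (184 ± 44.9 CPM) and Foxp3+ cells (179 ± 37.2 CPM) overlapped, Zbtb16/Klrb1c cells (99.1 ± 22.3 CPM) and ungated cells (91.6 ± 8.61 CPM) overlapped, and Cxcr5+ cells were lowest (51.4 ± 14.8 CPM). Against vascular ungated cells the log2 differences were 1.02 ± 0.12 in Ccl1+ cells (adjusted p = 9.67e-07), 0.95 ± 0.09 in Foxp3+ cells (adjusted p = 1.34e-09) and -0.85 ± 0.13 in Cxcr5+ cells (adjusted p = 4.37e-05). Between tissues Gata3 rose within Foxp3+ cells by 0.62 ± 0.14 (118 to 179 CPM, adjusted p = 0.00691) and did not pass the test within Zbtb16/Klrb1c cells (-0.20, adjusted p = 0.668) or Cxcr5+ cells (-0.09, adjusted p = 0.858). The step from ungated cells differed between tissues for the Cxcr5 gate (interaction -0.60 ± 0.17, edgeR adjusted p = 0.0343, with 6.14% of genes called) and for the Zbtb16/Klrb1c gate (-0.74 ± 0.21, adjusted p = 0.0498). These 2 calls held in 4 of 9 and 2 of 8 alternatives.

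Cells with an Il4 UMI carried more Gata3 than cells without in 6 of 6 libraries. Gata3 stood at 199, 123 and 133 CPM in spleen cells with Il4, against 66.9, 65.7 and 63.1 in those without, and at 524, 518 and 257 against 112.7, 90.6 and 90.6 in vascular libraries. Vascular libraries 1 and 2 had the largest steps. The comparison mixes compartments. In the spleen, 201 of 416 cells with Il4 were in the Zbtb16/Klrb1c gate, where Gata3 stood at 131, 112 and 103 CPM over all gated cells. The part of this mix in the difference was not tested. The mean log2 difference was 1.63 ± 0.63 (SD, n = 6, exact sign-flip permutation p = 0.03125, two-sided and the smallest that 6 libraries allow; adjusted p = 0.0625 over 2 cytokines), which does not pass after adjustment. For Il2 the mean log2 difference was 0.21, higher in 5 of 6 libraries (exact p = 0.25). It was -0.44 in spleen library 1, 0.61 and 0.55 in spleen libraries 2 and 3, and 0.14 to 0.24 in vascular libraries. The mean was 0.34 without spleen library 1, 0.13 without spleen library 2 and 0.41 without Foxp3+ cells (exact p = 0.0625). Vascular cells with Csf2 stood at 207.5, 132.1 and 172.0 CPM of Gata3, above the vascular cells without it in all 3 libraries.

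**Figure D5:**
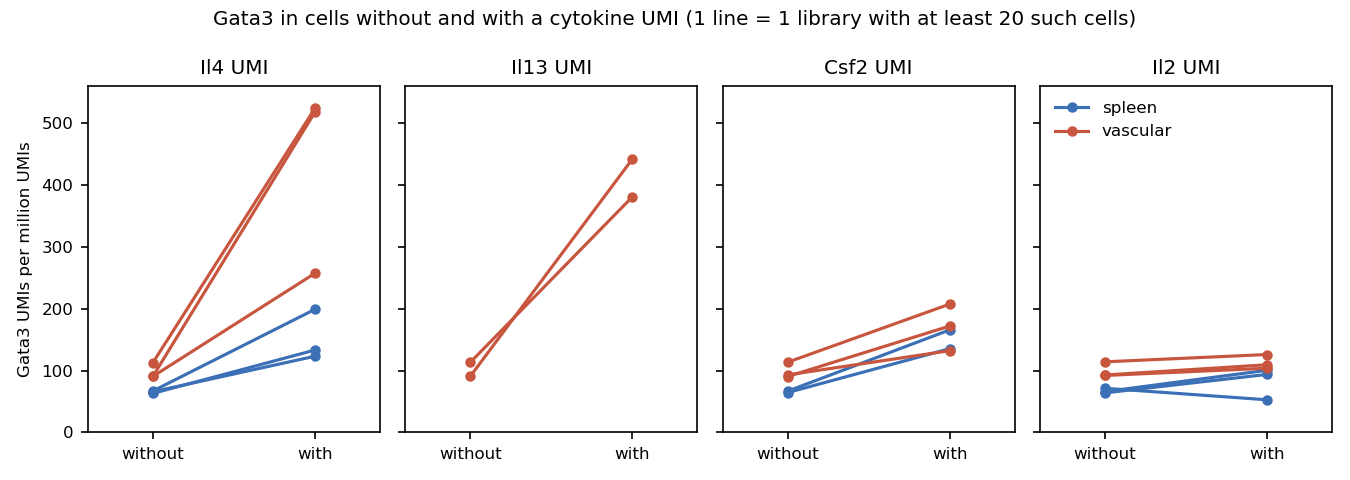
Gata3 level (CPM) in Cd3e+ cells without and with a UMI of Il4, Il13, Csf2 or Il2 (1 line per library with at least 20 cells that had the cytokine; blue, spleen; red, vascular). Gata3 is higher with Il4 in 6 of 6 libraries, up to 524 in vascular library 1, while for Il2 it is higher in 5 of 6 libraries and lower in spleen library 1.

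Other genes of the pathway moved with the members between tissues. Of 17 tested genes of a 20-gene Th2 programme list, 13 rose in vascular Cd3e+ cells and 1 fell, with a median log2 difference of 1.12 against 0.0096 over all genes tested. Of all genes tested, 23.9% rose and 18.9% fell (42.9% called), and the counts of this and the next 4 lists, which were chosen with earlier results known, stand beside that share. The 4 with the largest differences were Il1rl1 (0.654 to 13.1 CPM, log2 difference 4.31 ± 0.21), Areg (17.0 to 231 CPM, 3.78 ± 0.15), Igfbp7, a secreted matrix protein (0.987 to 11.1 CPM, 3.42 ± 0.20), and Ccr8, the CCL1 receptor (9.79 to 95.8 CPM, 3.27 ± 0.11). Stat6, which relays the interleukin-4 signal, was the 1 that fell, by 0.25. Of 15 tested genes of the list, 11 rose within Foxp3+ cells and none fell, beside 15.7% of all genes that rose and 12.4% that fell there. In vascular Ccl1+ against ungated cells, 8 of 15 were higher and none lower, beside 8.24% of all genes higher and 6.64% lower. The other gates went different ways. In the spleen Zbtb16/Klrb1c gate 4 were higher and 1 lower (median log2 difference -0.28, 17.7% of all genes called). In the vascular one none was called (1.53%). In the Cxcr5 gate 5 were higher and 2 lower in the spleen (24.2%), and 0 and 6 in vascular tissue (17.4%). In the Foxp3 gate 9 were higher and 2 lower in the spleen (30.3%), and 10 and 3 in vascular tissue (43.3%).

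Of 9 tested receptor genes for the member cytokines, 6 rose and none fell, beside 23.9% of all genes that rose. Csf2rb, the beta chain shared by the receptors for GM-CSF, interleukin-3 and interleukin-5, rose by 2.17 ± 0.23 on the log2 scale. Csf2rb2, the mouse beta chain for interleukin-3 alone, rose by 2.58 ± 0.32. Il2ra, the alpha chain of the interleukin-2 receptor, rose from 29.7 to 63.5 CPM and Il3ra from 7.53 to 14.9 CPM. Of 11 genes of the STAT5 pathway, which interleukin-2 activates, 7 rose and 1 fell, beside the same 23.9% and 18.9%. Cish, a feedback inhibitor, rose by 1.88 ± 0.13 and Socs3 by 1.42 ± 0.11, while Bcl2, a survival factor, fell by 0.96.

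Of 26 factors that act on cytokine genes, 17 rose and 2 fell in vascular cells (median log2 difference 0.54), beside 42.9% of all genes called. Fosl2, an AP-1 subunit, rose from 12.1 to 169 CPM, and Rora, a nuclear receptor, from 34.9 to 275 CPM. Nr4a3 and Nr4a1, early genes of antigen receptor signalling, rose by 2.26 ± 0.32 and 1.84 ± 0.21. Only the vascular tissue was digested at 37 °C, and the part of that step in these early genes and in the cytokines cannot be told apart from tissue. Of 10 tested genes that neighbour the members in the genome, 2 rose (Irf1 by 0.70 and Kif3a by 0.45) and 1 fell (Pdlim4, by 1.85), with a median log2 difference of 0.04, beside 42.9% called over all genes.

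Across 27 sums of 1 library and 1 compartment, the genes whose log2(CPM + 1) most resembled a member's were listed by Pearson r among 10889 genes, as a description over sums that share libraries and depth. For Gata3 they were Il2ra (0.92), 2010111I01Rik (0.89) and Slc2a3 (0.89). For Il4 they were Ggct (0.90), Cd160 (0.87) and Chn2 (0.86), and for Csf2 they were Pcmt1 (0.84), Cd70 (0.80) and Cd52 (0.78). Il13 was most like Igfbp7 (0.91), Cd70 (0.86) and Galnt3 (0.86), Il5 like Cd70 (0.81), Hdc (0.79) and Gldc (0.77), and Il2 like Ostf1 (0.84), Tnfsf11 (0.84) and Ap1s2 (0.81).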

How the data were processed

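Droplet-based 5' single-cell RNA sequencing was done on sorted CD4+ T cells of 3 spleen and 3 vascular libraries. Per the submitters' processing notes, FastQC 0.11.8, Cell Ranger 2.2.0, STAR 2.5.1b and Seurat (version not given in the sources used here) were used with the mm10 build. The deposited matrices hold UMI counts per gene and barcode, whole numbers with no normalization, per the file headers. Barcodes with at least 300 genes, at most 10% mitochondrial UMIs and a Cd3e UMI were kept. No doublet caller was run. Alternatives left out cells with at least 2 markers of another lineage, or the barcodes with most UMIs.

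UMI counts were summed per library, and per library and compartment with at least 20 cells, and all genes were tested by edgeR 4.0.16 quasi-likelihood fits (R 4.3.3, TMM, filterByExpr, two-sided, Benjamini-Hochberg at 0.05). Log2 differences are vascular minus spleen, or gate minus ungated with library as a block. DESeq2 1.42.0 was an alternative. The 6 spleen Ccl1+ cells were too few for a sum, so Ccl1+ cells were not compared between tissues. CPM are scaled by TMM library sizes. Intervals and floors cover counting error only. On simulated data for all Cd3e+ cells (12460 genes), 95 of 100 genes changed by a log2 of 1 were recovered. Of genes changed by a log2 of 2, 100 of 100 were recovered, with 8 false calls. For the spleen Zbtb16/Klrb1c gate (9375 genes) it was 52 and 87 of 100, with 2 false calls. The simulation gave all genes the same dispersion and changed only genes above a minimum count. It does not give the power for the cytokines, whose UMIs often lay in few cells.

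The members, gates and lists were chosen with earlier results of these data known. Genes were named by rule: the members, up to 4 genes per list with the largest called difference and receptors where needed, and the 3 genes of highest r per member with at least 100 UMIs.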

Additional observations from a re-analysis of the deposited data

Results flagged for a closer look

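In 4 cases the step from ungated cells to a gate differed between spleen and vascular tissue by a test of the difference itself (interaction in edgeR with library as a block). For Csf2 in the Zbtb16/Klrb1c gate the adjusted p was 6.51e-08 and stayed between 2.73e-08 and 5.36e-06 in 8 of 8 alternatives. The gate held 6, 24 and 40 Csf2 UMIs in spleen libraries 1 to 3 and 0 in each vascular library. It was smaller in vascular tissue, with 126 cells and 817729 UMIs against 531 cells and 3315683 UMIs in the spleen. Ungated cells rose from a mean of 0.283 to 7.40 CPM of Csf2, so the ungated side of the step changed too. A Csf2 UMI was found in 1.15% of vascular ungated cells.

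For Il4 in the Foxp3 gate the edgeR adjusted p was 0.0332. Foxp3+ and ungated cells stood at 3.49 and 3.4 CPM in the spleen and at 0.274 and 2.38 CPM in vascular tissue. The share of spleen Foxp3+ cells with an Il4 UMI (1.33%) stands beside 1.03% of spleen B cell barcodes, 2 of 194. The sign was the same in 9 of 9 alternatives (adjusted p of 0.0167 to 0.144). The call was lost without spleen library 2 or 3, without any 1 vascular library, with 2 UMIs of Foxp3, and without cells of other lineages.

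For Gata3 in the Cxcr5 gate the edgeR adjusted p was 0.0343 (0.0318 to 0.201 in 9 alternatives), lost without spleen library 2 or 3, without vascular library 3, with 2 UMIs of Cxcr5 and without cells of other lineages. For Gata3 in the Zbtb16/Klrb1c gate it was 0.0498 (0.0136 to 0.161 in 8 alternatives), lost without any 1 spleen library, without vascular library 1 or 3 and with DESeq2 size factors. Gata3 stood at 54.4 and 51.4 CPM in spleen and vascular Cxcr5+ cells and at 115 and 99.1 CPM in Zbtb16/Klrb1c cells, while ungated cells rose from 66.2 to 91.6 CPM.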

How the results depend on the processing

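Over all Cd3e+ cells, Gata3, Il13, Csf2 and Il2 kept their direction and their call in each alternative run. Il4, not called, ranged from -1.74 to -0.55 with 1 library left out and was called without vascular library 3; it was -1.22 (adjusted p = 0.0376) without the top cell of each member, an alternative chosen after seeing the data. With 2 UMIs of the gate gene the Zbtb16/Klrb1c share of spleen Il4 was 33.3% and the Ccl1 share of vascular Csf2 32.2%; counted as cells the latter was 22.3%. A sign was reversed 9 times, each time of a value that was not called. Gata3 within Zbtb16/Klrb1c cells ranged from -0.35 to 0.0036 with 1 library left out and Gata3 within Cxcr5+ cells from -0.36 to 0.074 (0.020 without cells of other lineages). Il4 within Cxcr5+ cells ranged from -0.58 to 0.70 (-0.10 with overlapping gates, -0.027 without cells of other lineages), and Gata3 in vascular Zbtb16/Klrb1c against ungated cells from -0.16 to 0.13. Without vascular library 3, Il2 within Cxcr5+ cells was called (1.37, adjusted p = 0.0242). The cause was not tested.

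Genes called over all Cd3e+ cells numbered 5351, 3642 to 6287 with 1 library left out, 4957 to 5513 in other settings, and 6427 at an unadjusted p under 0.05. With 1 library left out, counts of genes called fell by over 1.5 times in 12 comparisons. Without spleen library 2 they were 1769 of 2946 (spleen Foxp3 gate), 1001 of 1719 (spleen Zbtb16/Klrb1c gate), 1264 of 2350 (spleen Cxcr5 gate), 1896 of 2922 (within Foxp3), 162 of 303 (within Zbtb16/Klrb1c), 258 of 625, 175 of 299 and 312 of 596 (interactions of the Foxp3, Zbtb16/Klrb1c and Cxcr5 gates). Without vascular library 3 they were 722 of 1445 (vascular Ccl1 gate) and 758 of 1685 (vascular Cxcr5 gate), without vascular library 2 84 of 149 (vascular Zbtb16/Klrb1c gate), and without spleen library 3 148 of 399 (within Cxcr5). Smaller drops past 1.5 times came without spleen library 3 (1462, spleen Cxcr5 gate; 292 and 328, Foxp3 and Cxcr5 interactions), without spleen library 2 (232, within Cxcr5), without spleen library 1 (190, Zbtb16/Klrb1c interaction) and without vascular library 1 (400 and 315, Foxp3 and Cxcr5 interactions; 212 and 181, within Cxcr5 and Zbtb16/Klrb1c). The Cxcr5 interaction called 328 of 596 genes with 2 UMIs of Cxcr5. The labels do not say whether equal replicate numbers in the 2 tissues mark the same animals. Deviations of equal numbers correlated at 0.022, -0.005 and 0.116. With 3 libraries per tissue these values cannot show whether the libraries were paired. With the number as a replicate block, 5190 genes were called, Il4 was -1.06 (adjusted p = 0.097), and no call of a member over all Cd3e+ cells changed. The vascular Zbtb16/Klrb1c gate with 2 UMIs had too few cells for a test. Il5 and Il3 did not pass the filter on low counts, so no test of them is given.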
